A study of Mus musculus with 6 samples.

Results

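The MHC class II genes are followed here through 6 RNA-seq libraries of biliary epithelial cells, the cells that line the bile ducts of the liver. The 7 genes were taken by name from a table of 21700 genes: the class II chains H2-Aa, H2-Ab1 and H2-Eb1, the chaperone chains H2-DMa and H2-DMb1, the invariant chain gene Cd74 and the transactivator gene Ciita. All 7 were found once each. The cells were sorted by flow cytometry from livers of wild-type female C57BL/6 mice, with 3 samples of a non-pregnant group and 3 of a pregnant group taken on day 8 after mating (days post coitum). Libraries were made from ribosome-depleted total RNA. Neither the ages of the mice nor the antibodies of the sorting gate are given in the sources used here, and no label ties each sample to an animal of its own. The p-values therefore speak only of sample-to-sample spread, part or all of which may be technical.

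MHC class II molecules are paired alpha and beta chains that carry peptides from the endosomal pathway to the cell surface, where helper T cells read them. H2-Aa encodes the alpha and H2-Ab1 the beta chain of the I-A molecule. H2-Eb1 encodes the beta chain of I-E, whose alpha chain is not made in C57BL/6 mice because the H2-Ea gene is inactive in that haplotype. The invariant chain, the product of Cd74, fills the groove until its remnant is exchanged for a peptide with the help of the H2-DM dimer. Ciita is the coactivator that switches the pathway on. Macrophages, dendritic cells and B cells express these genes at high levels, and epithelial cells can acquire them under interferon gamma, which made the macrophage genes Cd5l and C1qa the companions of every value below.

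Levels are in FPKM, a fragment number divided by exon length and by library depth. The depth was between 25047887 and 35083751 recovered fragments per library. All libraries carried the biliary profile, and the sum of its markers was also higher with pregnancy. The summed level of 10 markers, most of it from Spp1, was 5118 to 6470 FPKM in the non-pregnant and 7019 to 7477 FPKM in the pregnant libraries. All 10 had a log2 change above 0, from 0.0027 to 0.66, as did 44.8% of all genes tested. An unadjusted p under 0.05 was found for 4, Cftr, Muc1, Cldn7 and Krt19, against 7.09% of tested genes in that direction (limma). After adjustment 0 passed in limma, and limma-voom gave 5 and 0. The part of the biliary markers in the class II difference was not tested. Non-pregnant library 2 stood apart in 8 markers of sinusoidal endothelium, summing to 229 FPKM against 16.6 to 32.5 FPKM in the other libraries. The groups stood apart in 10 of 12 tested macrophage markers, each higher with pregnancy, as in 9.9% of all genes tested. The most abundant of these markers, Csf1r and Cd68, overlapped between the groups. Csf1r was at 32.5 and 34.7 FPKM and Cd68 at 38.1 and 38.9 FPKM in the group means (limma adjusted p of 0.783 and 0.858). Cd5l, a protein secreted by macrophages, was at 0.994, 1.40 and 0.363 FPKM in non-pregnant libraries 1 to 3 and at 20.1, 14.7 and 9.29 FPKM in pregnant libraries 1 to 3. C1qa, a chain of complement C1q, was at 0.772, 1.18 and 0.464 FPKM and at 16.2, 12.04 and 6.23 FPKM.

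Class II promoters share an upstream module in which an X box, bound by the RFX complex, and an X2 box, bound by CREB or ATF factors, precede a Y box, bound by NF-Y. Ciita is held on this module by those proteins and does not bind DNA itself. The stretches below show matches to parts of that module for the members that have them and, for comparison, for 2 class II genes whose levels were near 0 in these cells. They are from the RefSeq promoter table (GRCm38.p6), which held windows for 4 of the 7 members, H2-Aa, H2-Eb1, H2-DMa and H2-DMb1. Capitals mark matches to TGATTGG (Y box), TGACGTCA (X2 box) or, as the core of the X box, AAC followed by NN (any bases) and ATGATG, and each stretch reads 5′ to 3′ along its gene.
H2-Aa, minus strand, chr17:34287857-34287912: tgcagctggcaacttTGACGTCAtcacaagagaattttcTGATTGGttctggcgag
H2-Eb1, plus strand, chr17:34305763-34305822: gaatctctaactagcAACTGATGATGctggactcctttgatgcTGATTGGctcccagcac
H2-DMb1, plus strand, chr17:34153084-34153144: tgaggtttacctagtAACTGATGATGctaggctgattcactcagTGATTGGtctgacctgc
H2-DMb2, plus strand, chr17:34145113-34145173: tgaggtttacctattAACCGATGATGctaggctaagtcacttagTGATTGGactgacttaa
H2-Ob, plus strand, chr17:34238805-34238862: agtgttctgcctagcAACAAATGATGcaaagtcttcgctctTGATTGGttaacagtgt

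Both strands of the 250 bases before each start were searched. The Y box letters were in 7.23% of all 32851 windows, the X2 letters in 1.55% and the X core letters in 0.119%. X core and Y box together were in 0.0274%, that is 9 windows of 7 genes, among them H2-Eb1, H2-DMb1, H2-DMb2 and H2-Ob. The X core letters were chosen after these windows had been read, so these shares describe the letters only. From the first base of the X core to the first base of the Y box there were 28 bases in H2-Eb1 and 29 in H2-DMb1. The H2-Aa window held no X core match but the X2 letters from position -74 and the Y box from position -50, counted from the start as 0. Neither of the 2 windows of H2-DMa held any of the 3 motifs in these letters. H2-DMb2 and H2-Ob hold the X core and Y box letters, without the X2 letters, and were read at low levels. H2-DMb2 was between 0.114 and 0.451 FPKM and H2-Ob between 0 and 0.0615 FPKM over the 6 libraries. A match is a description of the sequence, not evidence of binding.

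**Figure D1:**
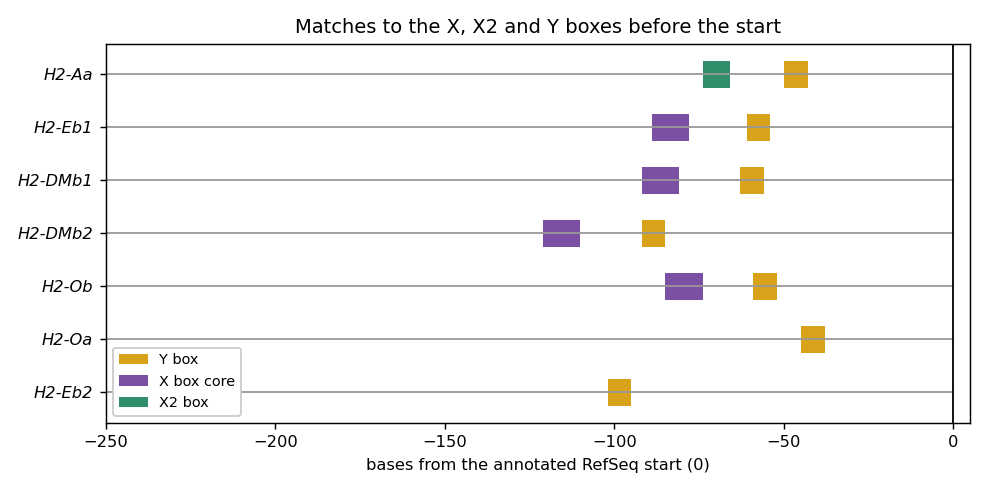
Position of the matches to the X box core (purple), the X2 box (green) and the Y box (yellow) in the 250 bases before the RefSeq start of 7 class II genes, in bases from the start. In H2-Eb1 and H2-DMb1 the X core and the Y box lie 28 and 29 bases apart, first base to first base, and H2-Oa and H2-Eb2 hold the Y box letters alone.

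All 7 class II genes were higher in every pregnant library than in every non-pregnant library, by 1.25-fold for H2-DMa to 2.56-fold for H2-Aa, and none passed the test over all genes. The test covered the 11412 genes whose mean over the 6 libraries reached 1 FPKM. Of these, 9.9% had a pregnant group wholly above the non-pregnant one and 12.2% wholly below. The 6 tested members, all but Ciita, had a median log2 change of 0.71, against -0.02 over all tested genes, and all 6 lay above 0, as did 44.8% of the tested genes. With limma's Benjamini-Hochberg adjusted p, 0 of the 6 passed 0.05 (adjusted p from 0.256 for H2-Ab1 to 0.354 for H2-DMa), where 0.0876% of all tested genes did (0.0613% higher in pregnancy). At an unadjusted p under 0.05 there were 6 of 6, against 7.09% of the tested genes in that direction and 6.3% in the other, and limma-voom on the recovered fragments likewise gave 0 of 6 past the adjusted and 6 of 6 past the unadjusted threshold. With non-pregnant library 2 and pregnant library 1 both left out, the log2 changes of H2-Aa, H2-Ab1, H2-Eb1, H2-DMa and Cd74 were 0.47, 0.45, 0.35, 0.15 and 0.31, each more than 1.5 times smaller than with all libraries, and 4 of 6 members had an unadjusted p under 0.05. In bulk samples, more cells of a type and more RNA per cell cannot be told apart.

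**Figure D2:**
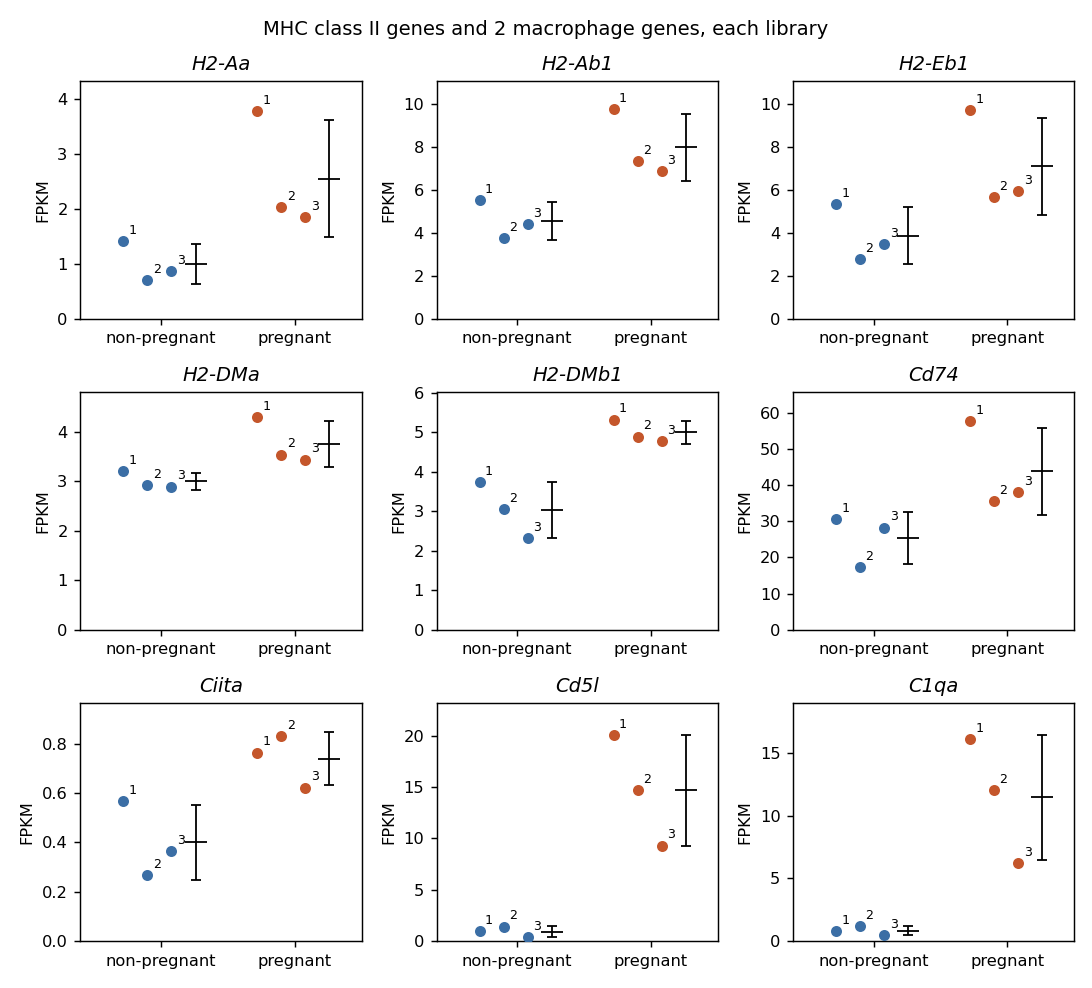
FPKM of the 7 class II genes and of Cd5l and C1qa in each library (points, with the replicate number) and the mean with SD of each group (black, n = 3). The groups do not overlap in any panel, and pregnant library 1 is highest in every panel except that of Ciita.

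Of the I-A chains, H2-Ab1 (ENSMUSG00000073421; mm10 chromosome 17, 34257689 to 34269419) was at 5.49, 3.75 and 4.38 FPKM in the non-pregnant and 9.74, 7.32 and 6.85 FPKM in the pregnant libraries. Its lowest pregnant value was above its highest non-pregnant value by more than the SD of the non-pregnant group (4.54 ± 0.883 against 7.97 ± 1.55 FPKM, SD, n = 3 each). The difference was 1.76-fold, a log2 change of 0.69 ± 0.15 (SE; 95% interval 0.34 to 1.05; limma adjusted p = 0.256).

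H2-Aa (ENSMUSG00000036594; chromosome 17, 34282744 to 34287823) was at 1.42, 0.705 and 0.867 FPKM in the non-pregnant and 3.78, 2.03 and 1.85 FPKM in the pregnant libraries. Pregnant library 1 held almost as much as the other two together, and non-pregnant library 1 was the closest to the pregnant values. The log2 change was 0.81 ± 0.22 (SE; 95% interval 0.30 to 1.31; limma adjusted p = 0.295). These values rest on 154, 81 and 116 fragments without pregnancy and 382, 238 and 178 with it, whose depth-corrected pooled ratio was 2.60 (exact Clopper-Pearson 95% interval 2.29 to 2.95). Intervals from fragments cover counting error only, as reads without molecular identifiers are not independent molecules.

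H2-Eb1, the orphan I-E beta chain in this strain (ENSMUSG00000060586; chromosome 17, 34305867 to 34316674), was at 5.33, 2.79 and 3.48 FPKM in the non-pregnant and 9.71, 5.68 and 5.93 FPKM in the pregnant libraries. Non-pregnant library 1 and pregnant library 2 differed by less than the SD of either group (1.32 and 2.26 FPKM). The log2 change was 0.74 ± 0.23 (SE; limma adjusted p = 0.301).

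Of the chaperone chains, H2-DMb1 (ENSMUSG00000079547; chromosome 17, 34153072 to 34160230) was at 3.74, 3.05 and 2.31 FPKM in the non-pregnant and 5.32, 4.89 and 4.77 FPKM in the pregnant libraries. The pregnant libraries lay close together (4.99 ± 0.286 FPKM, SD, n = 3), and the log2 change was 0.59 ± 0.13 (SE; limma adjusted p = 0.277). The value is uncertain in one respect: 22.65% of the 50-base stretches of its transcripts also occur in those of the neighbouring paralog H2-DMb2, so the counting may have split or dropped such fragments.

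H2-DMa (ENSMUSG00000037649; chromosome 17, 34119541 to 34139101) was at 3.20, 2.92 and 2.89 FPKM in the non-pregnant and 4.29, 3.54 and 3.44 FPKM in the pregnant libraries. Pregnant library 1 was the highest and the other pregnant libraries lay just above the non-pregnant range. The log2 change was 0.25 ± 0.096 (SE; 95% interval 0.02 to 0.47; limma adjusted p = 0.354). Of the exon bases of H2-DMa, 10.4% also lie in exons of Brd2 on the other strand. Whether the counting used strand is not given in the sources used here, so fragments of Brd2 may be part of the H2-DMa level. The quotient of H2-DMb1 to H2-DMa was 1.17, 1.05 and 0.801 without pregnancy and 1.24, 1.38 and 1.39 with it. These quotients did not overlap, and an exact two-sided permutation test of their log2 values gave p = 0.1, the smallest that 3 against 3 allows (0.15 after Benjamini-Hochberg adjustment over the 3 quotients between partner chains).

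Cd74 (ENSMUSG00000024610; chromosome 18), the invariant chain, was the most abundant member, with 30.7, 17.3 and 28.2 FPKM in the non-pregnant and 57.7, 35.7 and 38.0 FPKM in the pregnant libraries. Its non-pregnant libraries 1 and 3 lay nearer to pregnant libraries 2 and 3 than to non-pregnant library 2. The fold difference of 1.72 corresponded to a log2 change of 0.77 ± 0.24 (SE; 95% interval 0.21 to 1.33; limma adjusted p = 0.301). With 878 to 2580 fragments per library, counting error alone left the pooled ratio of 1.72 between 1.65 and 1.79, a narrower range than that of the fit, which includes the spread between libraries.

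Ciita (ENSMUSG00000022504; chromosome 16, 10480059 to 10528418) stayed under 1 FPKM in all 6 libraries and under the filter. It was at 0.567, 0.267 and 0.363 FPKM in the non-pregnant and 0.764, 0.832 and 0.622 FPKM in the pregnant libraries. The highest non-pregnant and the lowest pregnant value were close, at 0.567 and 0.622 FPKM. Recovered fragments numbered 155, 77 and 122 against 194, 245 and 150, and their depth-corrected pooled ratio was 1.90 (counting interval 1.66 to 2.18). When the filter was lowered to a mean of 0.1 FPKM the gene was tested, with a log2 change of 0.32 ± 0.10 (SE; limma adjusted p = 0.279). The log2(FPKM + 1) scale understates the change of a gene at this level.

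**Figure D3:**
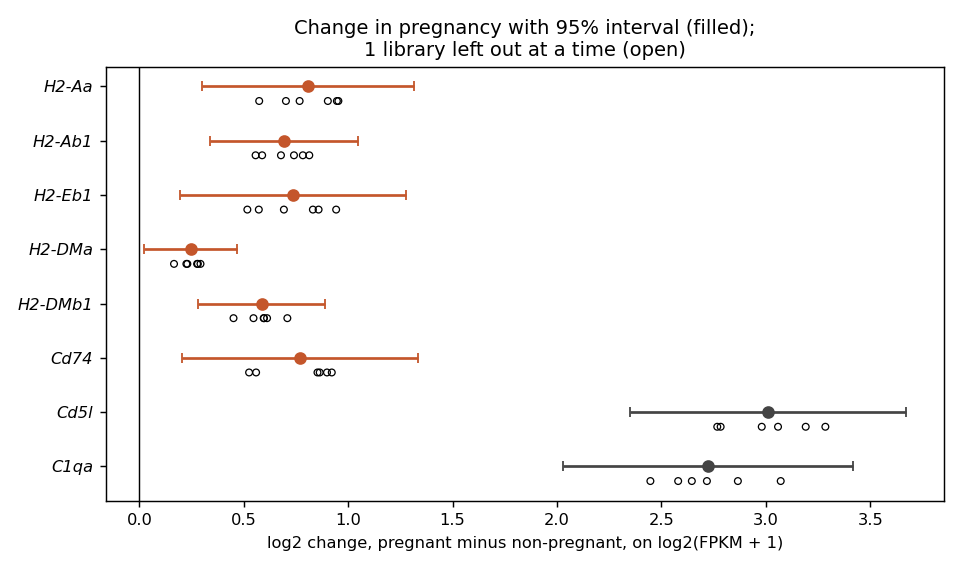
Log2 change of the 6 tested class II genes (orange) and of Cd5l and C1qa (grey) on the log2(FPKM + 1) scale, pregnant minus non-pregnant, with the 95% interval of the limma fit. Open circles are the same change with 1 library left out. The class II intervals lie above 0 and below those of Cd5l and C1qa, whose changes were 3.01 and 2.72.

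In both groups the mean levels stood in the same order: Cd74, H2-Ab1, H2-Eb1, H2-DMb1, H2-DMa, H2-Aa and Ciita. In the non-pregnant libraries H2-Ab1 and H2-Eb1 overlapped, as did H2-Eb1 and H2-DMb1, and H2-DMb1 and H2-DMa differed by less than their spread (3.03 ± 0.712 and 3.002 ± 0.171 FPKM, SD, n = 3 each). H2-Aa was read at 0.258, 0.188 and 0.198 of the level of its partner H2-Ab1 in the non-pregnant and at 0.388, 0.277 and 0.270 in the pregnant libraries. Those quotients rest on the exon lengths used for the scaling, 3798 bases for H2-Aa and 2568 for H2-Ab1. The pregnant quotients were higher than the non-pregnant ones in all libraries (exact permutation p = 0.1, adjusted 0.15), while those of H2-Eb1 to H2-Ab1 overlapped (exact permutation p = 0.6).

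Against Cd74, the quotients of 4 members overlapped between the groups and those of H2-Aa and H2-DMa did not. H2-Ab1 was at 0.179, 0.217 and 0.155 of the Cd74 level without pregnancy and 0.169, 0.205 and 0.180 with it. H2-Eb1 was at 0.174, 0.161 and 0.123 and at 0.168, 0.159 and 0.156. The exact permutation test gave p = 0.9 for each (1 after Benjamini-Hochberg adjustment over the 6 members set against Cd74). H2-Aa stood at 0.0462, 0.0408 and 0.0307 of Cd74 without pregnancy and at 0.0655, 0.0569 and 0.0487 with it, so its quotient was higher. H2-DMa stood at 0.104, 0.169 and 0.102 and at 0.0744, 0.0992 and 0.0903, so its quotient was lower (exact permutation p = 0.1 for each, adjusted 0.3). Of all pairs among the 6 tested members, Pearson's r over the 6 libraries was lowest for H2-DMb1 with Cd74 (0.737) and highest for H2-Aa with H2-DMa (0.992), a description of 6 points that share their libraries and groups.

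The libraries ranked differently for class II and for macrophage genes without pregnancy, and in part alike with it. Within the non-pregnant group all 6 tested class II members were highest in library 1, as were 23.9% of all tested genes. H2-Aa, H2-Ab1, H2-Eb1 and Cd74 were lowest in library 2 (35.8% of all tested genes), H2-DMa and H2-DMb1 in library 3 (36.5%). Of 12 tested macrophage markers 10 were highest in non-pregnant library 2 and 11 were lowest in library 3, where 32.7% and 36.5% of all tested genes were. Within the pregnant group both sets were highest in library 1, with 6 of 6 class II members and 11 of 12 macrophage markers, where 33.6% of all tested genes were. H2-Aa, H2-Ab1, H2-DMa and H2-DMb1, 4 of the 6, stood in the order 1, 2, 3 from high to low, as did 11 of the 12 macrophage markers and 20.4% of all tested genes. H2-Eb1 and Cd74 were lowest in pregnant library 2 instead. In pregnant library 3, Cd5l was at 10.1 and C1qa at 7.75 times the non-pregnant mean, and in pregnant library 2 at 16.02 and 14.97 times. H2-Eb1 was at 1.53 and 1.47 times and Cd74 at 1.498 and 1.40 times in the same libraries 3 and 2, and H2-Ab1 at 1.51 and 1.61 times.

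**Figure D4:**
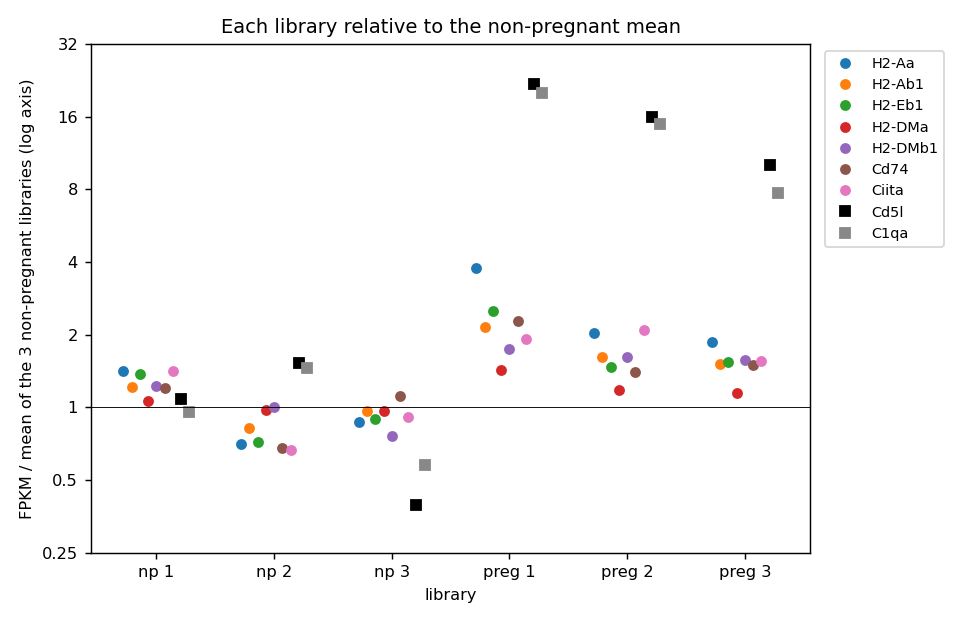
FPKM of each class II gene (circles) and of Cd5l and C1qa (squares) in each library, divided by the mean of that gene in the 3 non-pregnant libraries, on a log axis. In pregnancy Cd5l and C1qa lie between 7.75 and 21.9 times the non-pregnant mean and the class II genes between 1.15 and 3.79 times.

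Set against C1qa or Cd5l, the class II level was lower in every pregnant than in every non-pregnant library. Cd74 stood at 39.7, 14.7 and 60.8 times the C1qa level in non-pregnant libraries 1 to 3 and at 3.57, 2.96 and 6.11 times in pregnant libraries 1 to 3. For each of the 7 members the quotients to Cd5l and to C1qa did not overlap between groups. The exact permutation p was 0.1 for each of the 14 comparisons and 0.1 after Benjamini-Hochberg adjustment, the smallest possible. Cd5l and C1qa themselves differed between the groups and rose by a larger factor than any member, though in FPKM Cd74 rose more on average. Such a rise of the divisor can by itself set the quotients apart, so these tests show nothing particular to class II. Whether other genes give the same result was not tested. The increase of Cd74 over its non-pregnant mean was 32.3, 10.3 and 12.7 FPKM in pregnant libraries 1, 2 and 3. The increase of C1qa was 15.4, 11.2 and 5.43 FPKM, so Cd74 gained 2.10, 0.913 and 2.33 FPKM for each FPKM of C1qa. For H2-DMb1 the gain was 0.148, 0.165 and 0.320 FPKM for each FPKM of C1qa, largest in pregnant library 3 as for Cd74, H2-Ab1, H2-Eb1 and Ciita. For H2-Aa it was 0.181, 0.0918 and 0.158 and for H2-DMa 0.0838, 0.0477 and 0.0802, largest in pregnant library 1.

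In the non-pregnant libraries leukocyte and macrophage genes were read at unlike levels. Ptprc, which encodes the leukocyte antigen CD45, had 12, 17 and 8 fragments there, where Cd74 had 1475, 878 and 1669. Csf1r had 5744, 7623 and 3889 fragments and Cd68 had 1451, 1445 and 1593 in the same libraries. With pregnancy Ptprc stood at 200, 144 and 58 fragments, its mean level below the filter. The full macrophage list of 14 markers summed to 57.6 to 90.9 FPKM in the non-pregnant and 112 to 187 FPKM in the pregnant libraries, most of it in the former from Csf1r and Cd68. Without these, a choice made after seeing the values, it summed to between 2.49 and 9.21 and between 42.0 and 111 FPKM, and none of the 12 was at 0 throughout the non-pregnant group. The pan-leukocyte and monocyte list of 10 genes, such as Lyz2 and Tyrobp, summed to 0.493 to 3.82 and 9.98 to 27.7 FPKM. The part of these cells in the class II difference was not tested.

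Markers of other cells that express class II were fewer. Among 10 dendritic cell markers only Zbtb46 and Fscn1 passed the filter, and both overlapped between groups. Xcr1, Cd209a and Ccr7 had 0 fragments in all non-pregnant libraries, and Flt3, the growth factor receptor of dendritic cells, had 0, 4 and 0 against 21, 7 and 10. Itgax, which encodes the integrin CD11c, had 0, 2 and 4 against 45, 12 and 19 fragments. Siglech, a gene of plasmacytoid dendritic cells, had 0, 2 and 0 against 5, 13 and 6. For Itgax, Flt3 and Siglech the groups did not overlap, as for 9.9% of tested genes in that direction. Batf3 and Clec9a, also below the filter, overlapped between the groups. The 10 markers summed to between 4.54 and 10.4 FPKM in the non-pregnant and between 5.73 and 6.45 FPKM in the pregnant libraries, mostly from Zbtb46 and Fscn1, which were highest in non-pregnant library 2. Without these, the other 8 summed to 0.0587 to 0.571 and 0.751 to 1.22 FPKM. The B cell gene Ms4a1 had at most 2 fragments in any library, whereas Cd79a was at 1.45 to 2.04 and 2.27 to 2.60 FPKM (limma adjusted p = 0.314). Cd22, an inhibitory receptor gene of B cells, had 4, 2 and 2 against 28, 21 and 9 fragments, and Pax5, their lineage factor, 0, 1 and 0 against 7, 6 and 4. Both were below the filter, and neither overlapped between the groups, as for 9.9% of tested genes in that direction. The 8 B cell markers summed to 1.62 to 2.16 and 2.71 to 3.25 FPKM, and without Cd79a to 0.128 to 0.170 and 0.103 to 0.980 FPKM, leaving the groups overlapping. These exclusions were chosen after seeing the values. The sum was 0.277 to 0.315 and 0.719 to 1.40 FPKM over 9 T and NK cell markers. The part of any of these cells in the class II difference was not tested. Non-pregnant library 2, with the 229 FPKM of sinusoidal endothelial markers named above, held the lowest summed class II level, 30.8 FPKM. The other libraries held 16.6 to 32.5 FPKM of these markers. The part of endothelial cells in the class II level was not tested. Of the 8 hepatocyte and 5 stellate cell markers tested 0 passed in limma and in limma-voom. At an unadjusted p under 0.05 there were 0 and 2 in each. Both stellate markers were lower with pregnancy, as were 6.3% of tested genes at that threshold (limma). The sums of the full lists overlapped between the groups (2351 to 2956 and 36.7 to 42.6 FPKM over the 6 libraries).

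**Figure D5:**
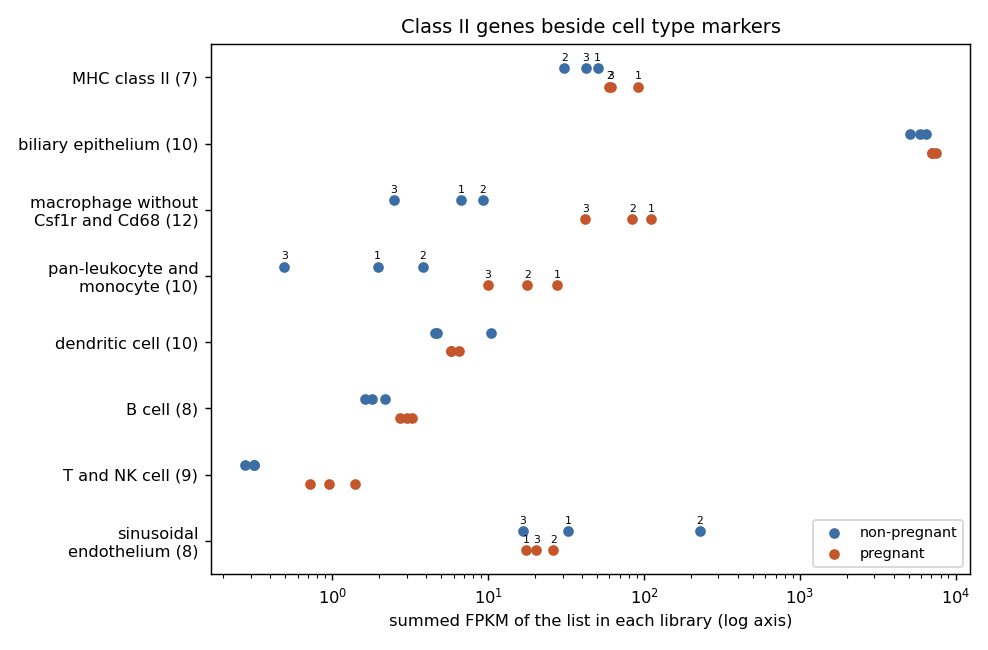
Summed FPKM of the class II genes and of 7 cell type marker lists in each library, on a log axis, with the number of genes in brackets and replicate numbers at 4 of the lists. The class II sum runs from 30.8 to 50.4 FPKM in the non-pregnant and from 59.9 to 91.3 FPKM in the pregnant libraries. The macrophage list is drawn without Csf1r and Cd68, an exclusion chosen after seeing the values. Drawn so, it and the pan-leukocyte list are further apart between the groups than class II. The full macrophage list of 14 markers summed to 57.6 to 90.9 FPKM in the non-pregnant and 112 to 187 FPKM in the pregnant libraries.

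The remaining class II genes were hardly read. H2-DMb2, the paralog of H2-DMb1, had 6 to 21 fragments per library, and H2-Oa and H2-Ob, the chains of the H2-O dimer that restrains H2-DM, had 1 to 9 and 0 to 10. H2-Eb2 had 0 fragments in 4 of the 6 libraries. All 4 overlapped between groups and none reached the filter. H2-Ea was not analysed here.

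Genes of peptide loading and the lysosome gave 1 gene past the threshold of 9 tested, Ctss, and 0 lower, where 0.0613% of all tested genes passed as higher. Ctss encodes cathepsin S, the protease that trims the invariant chain in professional antigen-presenting cells, and was at 0.502 ± 0.121 and 7.45 ± 3.21 FPKM (SD, n = 3 each; limma adjusted p = 0.0357). Its values of 10.3, 8.15 and 3.96 FPKM in pregnant libraries 1 to 3 stood in the order of Cd5l and C1qa, as did 20.4% of all tested genes. In non-pregnant libraries 1 to 3 it was at 0.617, 0.511 and 0.376 FPKM, whereas Cd5l and C1qa were highest in library 2. Ctss passed in 8 of 16 fits. The call was lost in limma-voom (adjusted p = 0.0961), with no filter on low values (0.126), with robust empirical Bayes (0.0800), with non-pregnant library 2 and pregnant library 1 both left out (0.0947), and without any one of non-pregnant libraries 1 and 3 and pregnant libraries 1 and 2 (0.239, 0.0897, 0.197 and 0.266), with a change above 0 in all 16 fits. Ctsl, the cathepsin L gene, whose product does this trimming in thymic epithelium, did not pass (limma adjusted p = 0.228). It was at 36.6, 37.7 and 41.2 FPKM in the non-pregnant and 30.6, 29.2 and 27.6 FPKM in the pregnant libraries, the groups not overlapping. Lgmn and Ctsh, also proteases of the endosome and lysosome, overlapped between the groups (limma adjusted p of 0.604 and 0.550).

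Of the 8 genes for the proteins that hold Ciita on the promoter module 0 passed in limma and in limma-voom. Their median log2 change was 0.05. At an unadjusted p under 0.05 there was 1, higher, in each, against 7.09% of tested genes in that direction (limma). That gene was Rfx5, a subunit of the RFX complex, at 7.005, 7.48 and 4.51 FPKM in the non-pregnant and 8.32, 8.001 and 9.45 FPKM in the pregnant libraries (limma adjusted p = 0.354). Rfxank, Creb1 and Nfya came next and overlapped between the groups, at 13.4 and 11.9, 4.57 and 5.20, and 8.56 and 9.49 FPKM in the group means.

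In the interferon gamma pathway 0 of 13 tested genes passed, and the median log2 change was 0.11. At an unadjusted p under 0.05, 5 were higher and 1 lower (the same numbers in limma and limma-voom). Of all tested genes 7.09% were higher and 6.3% lower at that threshold (limma). The interferon-induced GTPase gene Gbp2 was at 3.97 ± 1.13 and 7.23 ± 1.25 FPKM, Gbp3 at 0.710 ± 0.213 and 1.35 ± 0.291 FPKM, and the chemokine gene Cxcl10 at 9.60 ± 2.53 and 14.8 ± 0.825 FPKM (SD, n = 3 each; limma adjusted p from 0.290 to 0.301). The receptor genes Ifngr1 and Ifngr2 were at 33.3 and 32.5 FPKM and at 9.07 and 9.35 FPKM in the group means, and Irf1, an interferon-induced transcription factor gene, at 64.9 and 58.7 FPKM, all overlapping between the groups. Ifng itself had 2, 0 and 0 fragments against 1, 1 and 0.

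Partners of class II at the cell surface were mostly below the filter. The costimulatory genes Cd80 and Cd40 had at most 6 and 16 fragments in any library, and Cd86 had 6, 7 and 3 against 44, 35 and 15. The pregnant order was that of Cd5l and C1qa, as in 20.4% of all tested genes. The non-pregnant order was theirs too, as in 22.9% of tested genes, but rests on few fragments. Cd274, which encodes the inhibitory ligand PD-L1, was at 1.68, 1.105 and 1.51 against 1.84, 1.93 and 1.82 FPKM (limma adjusted p = 0.394). March1, a ubiquitin ligase that removes class II from the surface, had 12, 8 and 6 against 44, 22 and 22 fragments. Of the 5 tested genes of this list 0 passed. At an unadjusted p under 0.05 there was 1, higher, in limma, against 7.09% of tested genes in that direction, and 0 in limma-voom. That gene was Mif, a ligand of the invariant chain (30.6 ± 2.82 and 37.0 ± 3.99 FPKM, SD, n = 3 each; limma adjusted p = 0.357).

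The genes whose profile over the 6 libraries was most like the mean profile of the tested class II members were Phf13, Tor1aip2, 9530077C05Rik, Topors, Fbxl22, C4b, Cnbd2 and Fosb, with Pearson's r from 0.994 to 0.971. C4b, which encodes complement C4 and lies on chromosome 17 from 34728380 to 34743882, was at 10.03, 6.97 and 7.67 FPKM in the non-pregnant and 13.9, 11.6 and 10.02 FPKM in the pregnant libraries, the groups just overlapping. Its change was 0.48 on the log2 scale (limma adjusted p = 0.301). Cd5l and C1qa, with r of 0.871 each, ranked 177 and 178 among the tested genes outside the set, where 11412 genes were tested with the members. Both were thus near the top of that ranking. These correlations are over 6 libraries in 2 groups and describe likeness of profile alone.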

How the data were processed

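RNA of 6 sorted libraries was analysed. The authors deposited FPKM values, 1 column per sample, per the file headers. Build mm10 and the tools STAR 2.7.9a, HTSeq 0.13.5, DESeq2 1.30.1 and cutadapt 3.4 are listed, without roles, per the submitters' processing notes. FPKM times the GENCODE vM21 exon length was a whole multiple of 1 step per library for 98.5% of values above 0 (tolerance 0.01), which gave the recovered fragments. Lengths were found for 21672 of the 21700 genes. Groups and replicate numbers came from the sample titles. The description of non-pregnant library 3 numbers it 4.

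FPKM is not a count, so limma 3.58.1 (R 4.3.3) was fitted to log2(FPKM + 1) with trended empirical Bayes, two-sided, on genes averaging 1 FPKM or more, with Benjamini-Hochberg adjustment over all of them and a threshold of 0.05. The pseudocount understates changes of low genes. The fit was tested on simulated data. Summaries used Python 3.11.15, pandas 2.3.3 and scipy 1.17.1. Pregnant minus non-pregnant was the only comparison. The members and lists were chosen with earlier results of these data known. Named were all members, Cd5l and C1qa, listed genes past the threshold or of smallest p (up to 4 per list), the leading and near-absent cell type markers, and the 8 genes most like the members in profile. Other genes named in passing were chosen after their values were seen. The genes March1 and March8 were matched by identifier. Alternatives were another pseudocount, other filters, other scalings, a replicate block, robust empirical Bayes, limma-voom on fragments and leaving out each library. Some listed genes are not reported here.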

Additional observations from a re-analysis of the deposited data

How the results depend on the processing

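In all 16 fits the 6 tested class II members lay above 0, and in none did a member pass the threshold (limma adjusted p from 0.0854 for H2-DMb1 without non-pregnant library 2 to 0.738). Their median log2 change lay between 0.55 and 0.87 when 1 library was left out. It was 0.40 when non-pregnant library 2 and pregnant library 1 were both left out, an alternative chosen after seeing the data, in which Cd74 changed by 0.31 and H2-Eb1 by 0.35. Leaving out 1 library moved the count of genes past the threshold, 10 with all 6 libraries, to between 0 and 133. It was 133 without non-pregnant library 2, 12 without pregnant library 3, and 0 without each of the other 4, where 857 to 1419 genes had an unadjusted p under 0.05 (limma). The count was 0 with no filter on low values (limma, 2258 at an unadjusted p under 0.05), 5 with robust empirical Bayes, 1 with limma-voom and 4 with both libraries left out, and the cause was not tested. Cd5l and C1qa kept their direction in all 16 fits and passed in 9 and 8 of them (largest adjusted p 0.239 and 0.266). Among 15 other genes followed through the fits only Nfya changed sign in any fit, to -0.0044 without non-pregnant library 3 (0.241 without library 2). With the replicate block 13 genes passed and 0 class II members. Deviations of same-numbered libraries correlated at 0.068, 0.019 and -0.138, so the numbers were not treated as pairs. Fragments of 77 to 245 per library limit Ciita.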
